A study of Mus musculus with 9 samples.

Results

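The genes of cholesterol and fatty acid synthesis were followed in mouse lung tumour cells that had grown alone, beside resident lung macrophages or beside monocytes. The set is a list of 36 enzymes, regulators and carriers, matched by symbol to the rows of the deposited expression table. All 36 were found among its 12339 genes and all 36 passed the filter on low reads, which left 12326 genes. They comprise 18 enzymes of sterol synthesis, 12 genes of fatty acid synthesis and its supply, and 6 regulators or sterol carriers. Of the sterol enzymes 7 are of the mevalonate arm and 11 run from squalene synthase to cholesterol. The rule that made the list uses no measured value, though the members were chosen with earlier results of these data known.

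All 3 groups were KP-GFP tumour cells (strain C57BL/6), sorted as GFP-positive from spheroids, balls of cells that the labels describe both as a Matrigel culture and as formed in low-attachment wells. Spheroids began with 2500 tumour cells and stood for 7 days, either with no other cells, with 5000 TRMs (tissue-resident macrophages, here alveolar macrophages) or with 5000 monocytes of the bone marrow. Pools of 32 spheroids of a condition went through 20 min of enzyme digestion at 37 °C before the sort. Every group has 3 libraries, called here alone 1 to 3, TRM 1 to 3 and monocyte 1 to 3. Whether the libraries of a group came from separate cultures is not in the labels, so a p-value reflects the spread among these libraries only, and that spread may be technical. The GFP mark is shared by all groups, and the letters KP are not expanded in the labels.

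Cholesterol is built from acetyl-CoA through mevalonate and squalene, and fatty acids from malonyl-CoA by fatty acid synthase, after which elongases lengthen them and desaturases insert double bonds. The transcription factors SREBP1 (gene Srebf1) and SREBP2 (Srebf2) drive most of these genes. SCAP escorts them out of the endoplasmic reticulum when membrane sterol is low, and the INSIG proteins hold them back when it is high. Dividing cells need both pathways for membranes, and macrophages are large stores and donors of lipid.

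The stretches before the starts of 5 sterol genes are shown because sterol genes varied together among these libraries, as described further on. They come from the RefSeq promoter windows of GRCm38.p6, in which 29 of the 36 members were found. Each runs 5′ to 3′ on the strand of its gene and has 80 bases. It was placed, before the annotated gene start, where the most of the letters marked below fell. Finding them in a stretch is therefore no result. Capitals mark CCAAT on either strand (read as ATTGG on the other), letters that the factor NF-Y binds, and in Hmgcs1 also TCACNCCAC, a form of the sterol regulatory element that SREBPs bind.
Hmgcs1, chr13:119690154-119690233, plus strand: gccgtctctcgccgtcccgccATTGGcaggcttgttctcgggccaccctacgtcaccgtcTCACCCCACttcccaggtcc
Mvd, chr8:122443427-122443506, minus strand: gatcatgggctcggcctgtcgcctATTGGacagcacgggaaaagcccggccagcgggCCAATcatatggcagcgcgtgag
Nsdhl, chrX:72918372-72918451, plus strand: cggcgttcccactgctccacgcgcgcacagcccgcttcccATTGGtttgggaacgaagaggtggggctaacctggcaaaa
Hsd17b7, chr1:169969331-169969410, minus strand: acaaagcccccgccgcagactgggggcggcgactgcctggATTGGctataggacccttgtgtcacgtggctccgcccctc
Mvk, chr5:114444185-114444264, plus strand: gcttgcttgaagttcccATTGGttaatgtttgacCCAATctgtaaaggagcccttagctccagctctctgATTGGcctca

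In the 250 bases before the start, CCAAT on either strand occurred in 14 of the 15 sterol enzymes with a window (93.3%; the exception was Acat2) and in 23 of all 29 members (79.3%). Of all 27025 genes with a window 37.5% held it, and 40.6% of the 9775 that are also measured here. A gene was counted if any of its windows held the letters. The 29 members had 39 windows and the 27025 genes had 32851. The GC box GGGCGG, on either strand, was in 24 of 29 members (82.8%) against 35.4% of all genes and 64.0% of those in the table. The sterol regulatory element TCACNCCAC was in 1 member, Hmgcs1 (3.45% of members, 1.23% of all genes, 1.18% of those in the table). Its core CACNCCAC, which lies within it and was also counted on either strand, was in 3 members, Acat2, Hmgcs1 and Insig1 (10.3%, against 6.05% of all genes and 6.61% of those in the table). The E-box CACGTG, which reads the same on both strands, was in 6 members (20.7%, against 6.86% and 9.61%). These are matches of letters in a window and are not measured binding. Fads1, Fdft1, Fdps, Scd1, Scd2, Sqle and Stard4 had no window, so the letters were not searched for in them.

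Levels are reads divided by the TMM-adjusted library size in units of 1e+06 (scaled CPM). Library depth lay between 16001895 and 32771448 reads, and the fewest reads of any member in any library were 52, for Idi1. Mitochondrial transcripts took 0.288% to 0.667% of reads. Monocyte 3 stood apart on the second principal component of all genes (-75.9, against -32.9 to 50.3 for the other libraries), and results that rest on it are given with and without it. The epithelial keratins Krt8 and Krt18 were at 3386 to 5340.2 and 3235 to 5086 scaled CPM in every library, and Ptprc, the leukocyte antigen CD45, at 0.0210 to 4.47. Of 25 macrophage and monocyte markers 14 were in the table and 11, among them Adgre1, Marco, Tyrobp and the C1q genes, were not analysed here. Their summed level was 160.0 to 248 alone, 175 to 320 with TRMs and 185 to 250 with monocytes, most of it Cd14. Among them limma called Mrc1, the mannose receptor (5.12 ± 0.211 scaled CPM alone, 32.9 ± 9.27 beside TRMs, 39.2 ± 7.49 beside monocytes; SD, n = 3), and F13a1 (0.960 ± 0.303, 13.4 ± 3.82 and 13.4 ± 5.38) higher in both co-cultures, and Chil3, Siglecf and Ptprc lower with monocytes. Of 8 genes of macrophage lipid handling 1 rose and 1 fell with TRMs and 2 rose with monocytes. Of 9 epithelial markers 1 fell with TRMs (Cldn4) and 4 with monocytes (Cdh1, Cldn4, Cldn7 and Elf3). Over all genes 10.2% rose and 8.15% fell with TRMs, and 14.7% rose and 12.7% fell with monocytes. The summed level of the epithelial markers was 15347 to 17274 alone, 15395 to 19435 with TRMs and 10565 to 16582 with monocytes. The part of such transcripts in the results below was not tested.

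Levels of the members spanned a wide range. Per kilobase of annotated exon, the most abundant member in tumour cells alone was Scd2, a stearoyl-CoA desaturase, at 161 scaled CPM per kb (range 138 to 201). It was followed by Acly (64.1), which cleaves citrate to cytosolic acetyl-CoA, Me1 (54.2), the malic enzyme that makes NADPH, Fasn (51.8), the fatty acid synthase, and Srebf1 (44.8). Scd2 stood clear of the next gene, while the ranges of neighbours overlapped from Acly to Srebf1. At the low end were Idi1 (1.95), Fdps (1.20) and Acaca (1.06), each with a range that overlapped its neighbour. Of their annotated 50-base stretches, 25.3%, 26.2% and 30.4% occur in another gene too. So do 39.1% for Acat2, 28.3% for Me1 and 26.5% for Fdft1. The counting could have split the reads of such genes. The place of Acaca rests on division by 17074 bases of annotated exon. Undivided by length, it was at 18.1 scaled CPM alone, against 6.84 for Idi1 and 5.03 for Fdps.

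**Figure D1:**
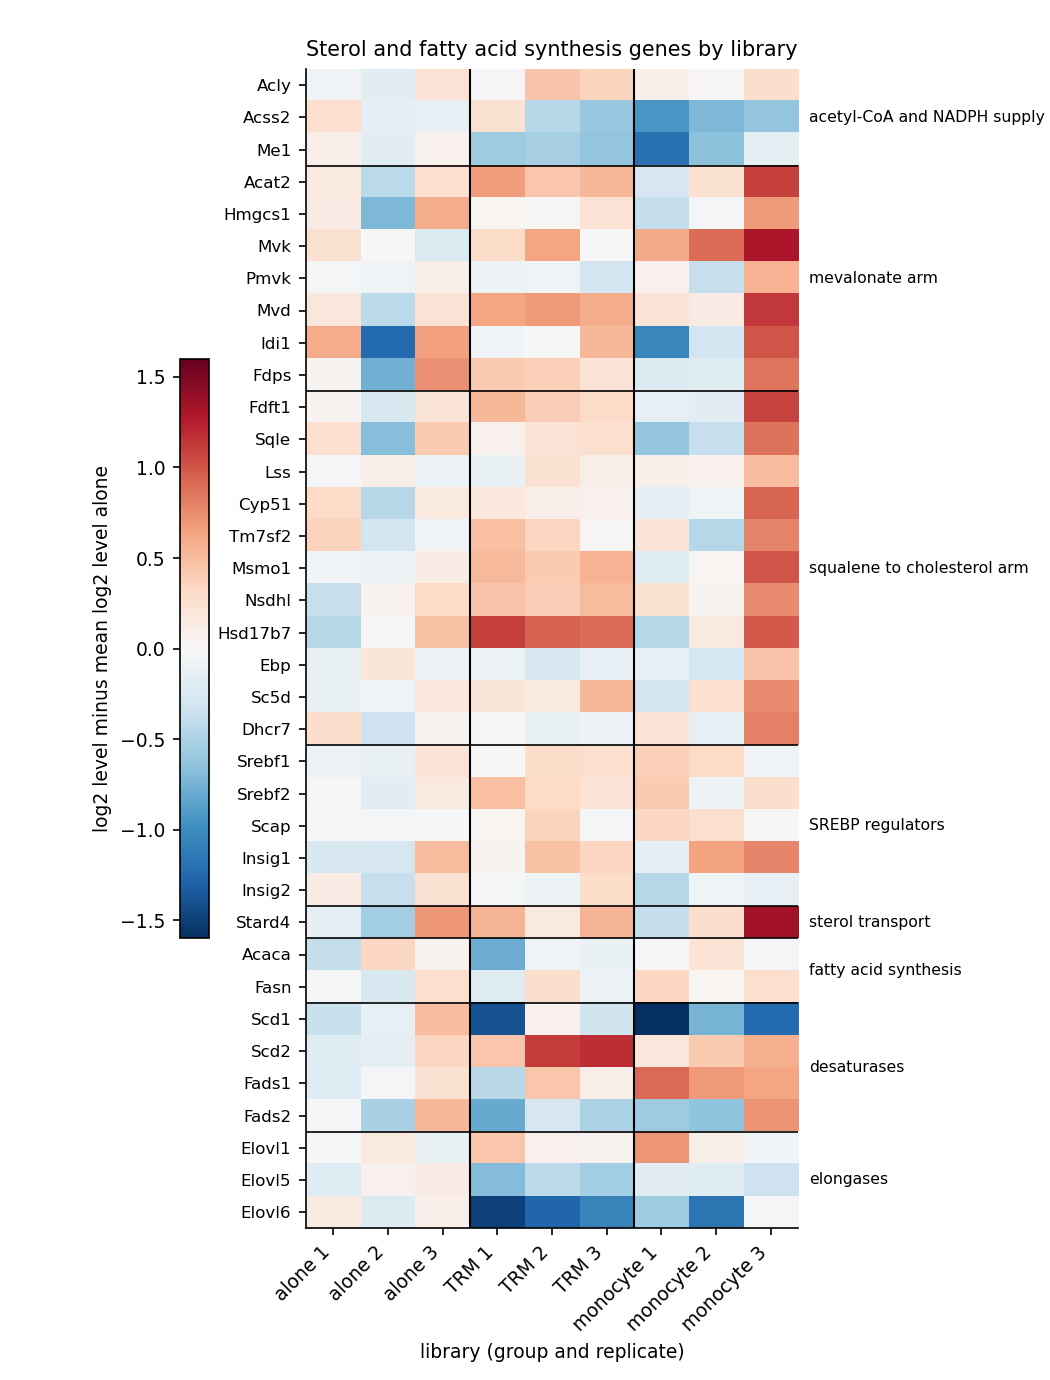
Log2 level of each of the 36 members in each of the 9 libraries, minus the mean log2 level of that gene in the 3 libraries of tumour cells alone (colour scale from -1.6 to 1.6; rows by role, columns by library). All 18 sterol rows are red (above the mean alone) in monocyte 3, the Elovl6 row is blue in all 3 TRM libraries, and the Scd1 row is blue in all 3 monocyte libraries.

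The first comparison asked what growth beside TRMs did to these genes. Of the 36 members 2 rose, Hsd17b7 and Scd2 (5.56%, against 10.2% of all genes tested that rose), and 2 fell, Elovl5 and Elovl6 (5.56%, against 8.15% of all genes; 18.4% of all genes passed in either direction). A call is a limma adjusted p under 0.05 over all 12326 genes. The 32 members without a call had adjusted p from 0.0721 to 0.992. The shares called were below those of all genes, so the set as a whole did not stand out by its count. The called genes were instead single enzymes: a desaturase, an enzyme late in cholesterol synthesis and a pair of elongases.

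Scd2 encodes the stearoyl-CoA desaturase that turns saturated into monounsaturated fatty acids, and lies on chromosome 19, 44293674 to 44306864 (GRCm38, plus strand). It was at 757, 778 and 1101 scaled CPM alone, at 1178, 1874 and 1966 with TRMs and at 984, 1153 and 1299 with monocytes. All 3 TRM libraries lay above all libraries alone. The rise with TRMs was 1.89-fold (878 ± 193 to 1673 ± 431, SD, n = 3; log2 0.92, SE 0.21, limma adjusted p = 0.00836), and this call was made under all 18 alternatives run. With monocytes the log2 difference was 0.40 (limma adjusted p = 0.184), and those libraries overlapped the range alone.

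Elovl6 extends palmitate to stearate, the substrate of the stearoyl-CoA desaturases (chromosome 3, 129532355 to 129638495, plus strand). It was at 60.9, 47.4 and 58.7 scaled CPM alone, at 19.6, 23.0 and 26.3 with TRMs and at 37.3, 24.5 and 54.7 with monocytes. The TRM libraries all lay below all libraries alone, and the monocyte libraries spread from the TRM range to the range alone. The fall with TRMs was 2.43-fold (55.7 ± 7.23 to 23.0 ± 3.35, SD, n = 3; log2 -1.28, SE 0.25, limma adjusted p = 0.00299) and was called under all 18 alternatives. With monocytes the difference was -0.59 (limma adjusted p = 0.0967), and without monocyte 3 the gene passed as lower (0.00945).

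Elovl5 lengthens polyunsaturated fatty acids (chromosome 9, 77917364 to 77984519, plus strand). Its levels were 105, 126 and 133 scaled CPM alone, 74.6, 90.0 and 83.0 beside TRMs and 107, 106 and 96.1 beside monocytes. Every TRM library lay below every library of the other groups. Against tumour cells alone it fell 1.47-fold with TRMs (121 ± 14.5 to 82.5 ± 7.72, SD, n = 3; log2 -0.55, SE 0.14, limma adjusted p = 0.0139), and the call was lost without alone 3 (0.0788). The third elongase, Elovl1, which makes very long chains, was at 60.8 ± 6.08, 69.8 ± 11.1 and 73.9 ± 21.5 in the 3 groups and passed in neither comparison with tumour cells alone.

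Hsd17b7 encodes a reductase of the late sterol steps, whose promoter stretch is printed above (chromosome 1, 169949535 to 169969241, minus strand). It was at 11.2, 15.2 and 21.2 scaled CPM alone, at 32.9, 29.6 and 28.6 with TRMs and at 11.2, 17.0 and 30.4 with monocytes. The TRM libraries lay close together and above all libraries alone, while monocyte 3 alone among its group reached their level. The rise with TRMs was 1.97-fold (15.9 ± 5.04 to 30.4 ± 2.28, SD, n = 3; log2 0.98, SE 0.32, limma adjusted p = 0.0467). This call sat at the threshold. It was lost without alone 1 (0.177), alone 2 (0.0929), TRM 1 (0.117), TRM 2 (0.120), TRM 3 (0.0948) or monocyte 2 (0.0620), with scaling by library totals (0.0618) and in edgeR (0.0620).

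Besides Hsd17b7, 5 sterol enzymes had all 3 TRM libraries above all libraries alone without passing the test. In the mevalonate arm these were Acat2, a thiolase that joins acetyl-CoA units (log2 0.55, limma adjusted p = 0.259), and Mvd, the decarboxylase that makes isopentenyl diphosphate. Mvd was at 16.8, 11.03 and 17.4 scaled CPM alone and at 22.9, 23.6 and 22.2 with TRMs (log2 0.63, limma adjusted p = 0.124), and passed without monocyte 3 (0.0448) or with only the 2 groups fitted (0.0484). From squalene synthase onward they were Fdft1, that synthase itself (log2 0.41, limma adjusted p = 0.333), Nsdhl, a sterol dehydrogenase (0.45, 0.228), and Msmo1, the methyl sterol oxidase. Msmo1 was at 114, 111 and 127 alone and 168, 156 and 173 with TRMs (log2 0.50, limma adjusted p = 0.168), and passed without monocyte 3 (0.0155) or with only the 2 groups fitted (0.0122). Leaving out that library changed the pooled spread and the genes tested, not the values compared. With Srebf2 and Scd2 added, 8 of the 36 members did not overlap upward, a share near the 20.8% of all genes. Downward there were 4 of 36, Me1, Pmvk, Elovl5 and Elovl6, a share below the 18.5% of all genes. By these counts the set did not stand out either.

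**Figure D2:**
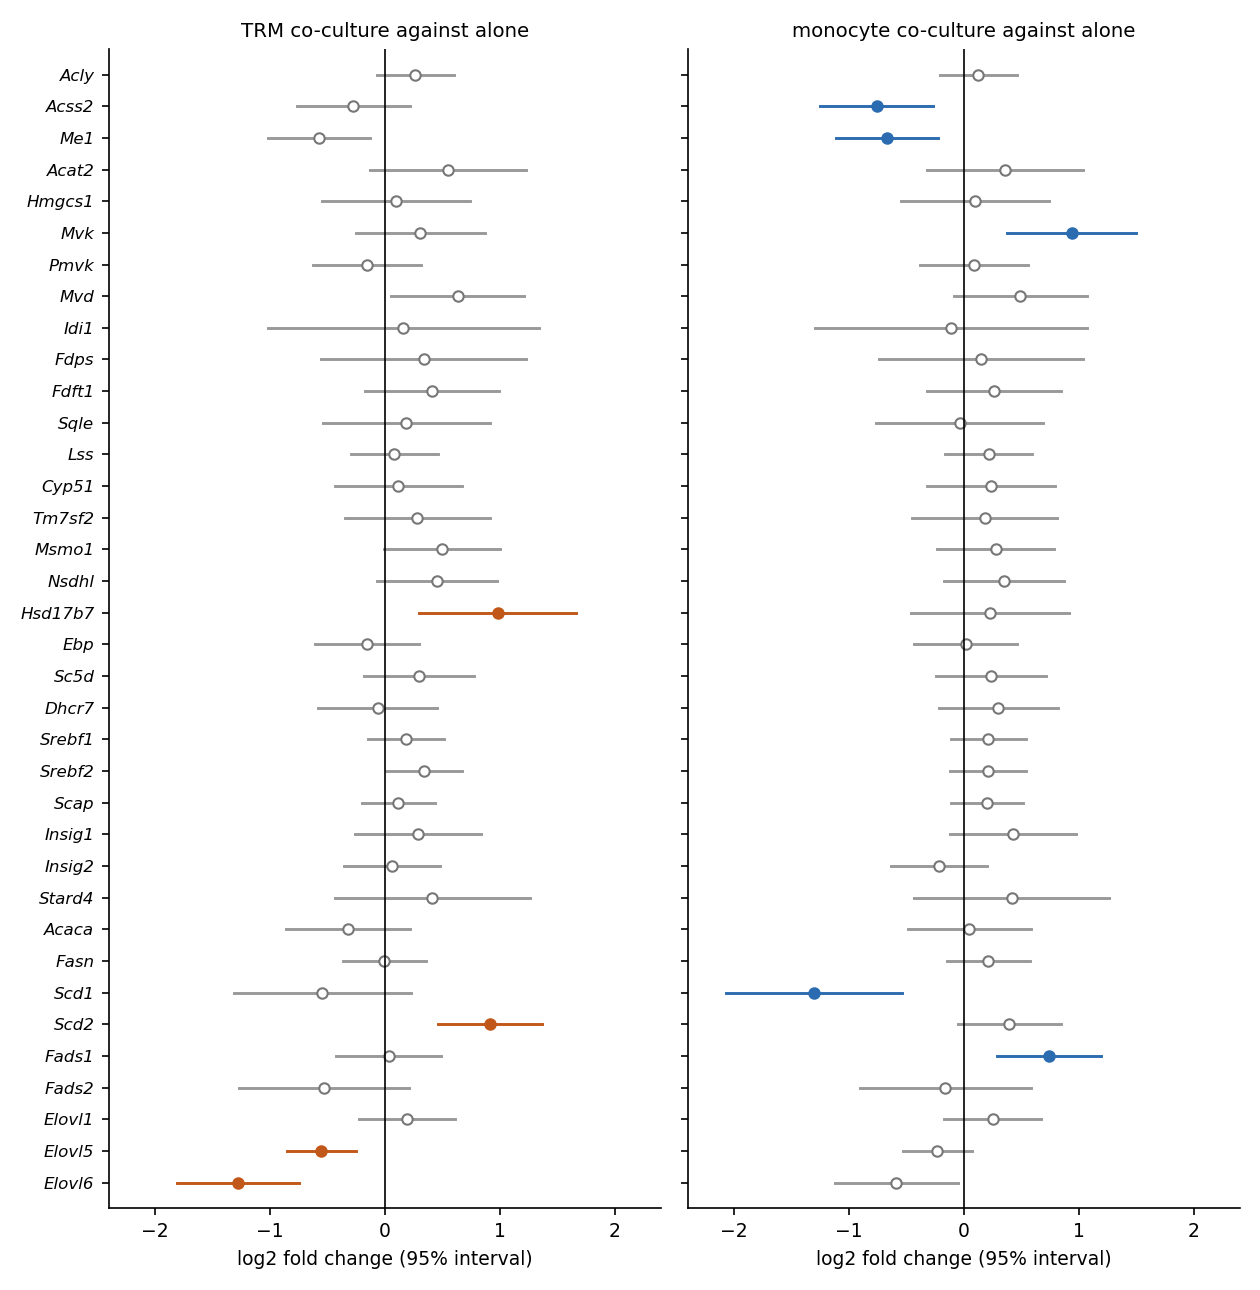
Log2 fold change of each of the 36 members in the TRM co-culture (left) and the monocyte co-culture (right), each against tumour cells alone, from limma with its 95% confidence interval. Filled coloured points passed at an adjusted p under 0.05. They are Hsd17b7, Scd2, Elovl5 and Elovl6 on the left and Mvk, Fads1, Acss2, Me1 and Scd1 on the right, and the 2 panels share the same control libraries.

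The second comparison concerned bone-marrow monocytes and was made against the same 3 libraries of tumour cells alone, so its results are not independent of the first. Of the 36 members 2 rose, Mvk and Fads1 (5.56%, against 14.7% of all genes tested), and 3 fell, Acss2, Me1 and Scd1 (8.33%, against 12.7%; 27.3% of all genes passed in either direction). The 31 members without a call had adjusted p from 0.0967 to 0.967. Groups did not overlap for 2 members upward, Mvk and Fads1 (21.3% of all genes), and for 2 downward, Acss2 and Scd1 (19.2%). These shares too lay under those of all genes. The genes called are 2 of the 3 supply enzymes (Acly was not called), a mevalonate kinase and a pair of desaturases.

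Scd1, the second stearoyl-CoA desaturase of the set, lies in the same cluster as Scd2 on chromosome 19 (44394455 to 44407879, minus strand). It was at 60.3, 70.3 and 109 scaled CPM alone, at 29.5, 80.9 and 62.1 with TRMs and at 20.3, 46.0 and 32.7 with monocytes. All monocyte libraries lay below all libraries alone, and the TRM libraries overlapped both groups. The fall with monocytes was 2.47-fold (79.7 ± 25.5 to 32.99 ± 12.8, SD, n = 3; log2 -1.31, SE 0.36, limma adjusted p = 0.0154). It was lost without alone 3 (0.0758) or monocyte 1 (0.0713). With TRMs the difference was -0.54 (limma adjusted p = 0.327).

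Fads1 is the delta-5 desaturase of polyunsaturated fatty acids (chromosome 19, 10182888 to 10196877, plus strand). It was at 32.6, 36.8 and 44.6 scaled CPM alone, at 27.7, 51.1 and 40.5 with TRMs and at 70.4, 60.5 and 58.6 with monocytes. Every monocyte library lay above every other library. The rise with monocytes was 1.67-fold (38.0 ± 6.09 to 63.2 ± 6.34, SD, n = 3; log2 0.74, SE 0.21, limma adjusted p = 0.0192) and was lost without alone 1 (0.0812) or monocyte 1 (0.0645). Its partner Fads2, the delta-6 desaturase, was at 27.0 ± 9.77, 18.1 ± 3.32 and 25.5 ± 14.8 in the 3 groups and passed in no comparison.

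Mvk phosphorylates mevalonate (chromosome 5, 114444269 to 114460591, plus strand), and its promoter stretch above, placed to hold the most matches, has CCAAT in 3 places. It was at 10.1, 8.49 and 7.32 scaled CPM alone, at 10.5, 13.3 and 8.57 with TRMs and at 13.1, 15.9 and 21.2 with monocytes. The monocyte libraries all lay above all libraries alone. The rise was 1.92-fold (8.64 ± 1.401 to 16.7 ± 4.14, SD, n = 3; log2 0.94, SE 0.26, limma adjusted p = 0.0168), lost without alone 3 (0.0748) or monocyte 3 (0.0533). Of the other 6 members of the mevalonate arm 0 passed in limma, edgeR or DESeq2 in this comparison (27.3% of all genes passed in limma). At an unadjusted limma p under 0.05 there were 0 of these 6 (4719 of all 12326 genes).

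Acss2 makes acetyl-CoA from acetate (chromosome 2, 155517948 to 155585724, plus strand). Its levels were 39.0, 29.2 and 29.6 scaled CPM alone, 38.1, 23.5 and 21.2 beside TRMs and 16.9, 19.6 and 20.8 beside monocytes. The monocyte libraries were the 3 lowest of the 9. With monocytes it fell 1.69-fold (32.6 ± 5.57 to 19.1 ± 1.99, SD, n = 3; log2 -0.76, SE 0.23, limma adjusted p = 0.0245). The call was lost without alone 1 (0.110), alone 3 (0.0501), monocyte 1 (0.0740) or monocyte 2 (0.0529).

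Me1 was at 224, 184 and 218 scaled CPM alone, at 140.2, 144 and 134 with TRMs and at 90.5, 131 and 188 with monocytes (chromosome 9, 86581371 to 86695953, minus strand). The TRM libraries lay close together and below all libraries alone. The monocyte libraries spread widely, and monocyte 3 reached the range alone. With monocytes Me1 fell 1.59-fold (208 ± 21.5 to 137 ± 49.0, SD, n = 3; log2 -0.67, SE 0.21, limma adjusted p = 0.0288), lost without alone 1 (0.0927), alone 3 (0.0900), monocyte 1 (0.0982) or monocyte 2 (0.0666) and when only these 2 groups were fitted (0.0531). With TRMs the difference was -0.57 and missed the threshold (limma adjusted p = 0.0721), and it passed without monocyte 1 (0.0153) or monocyte 3 (0.0172), in DESeq2 (0.0291), with library totals (0.0370) and with only these 2 groups fitted (0.00672).

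**Figure D3:**
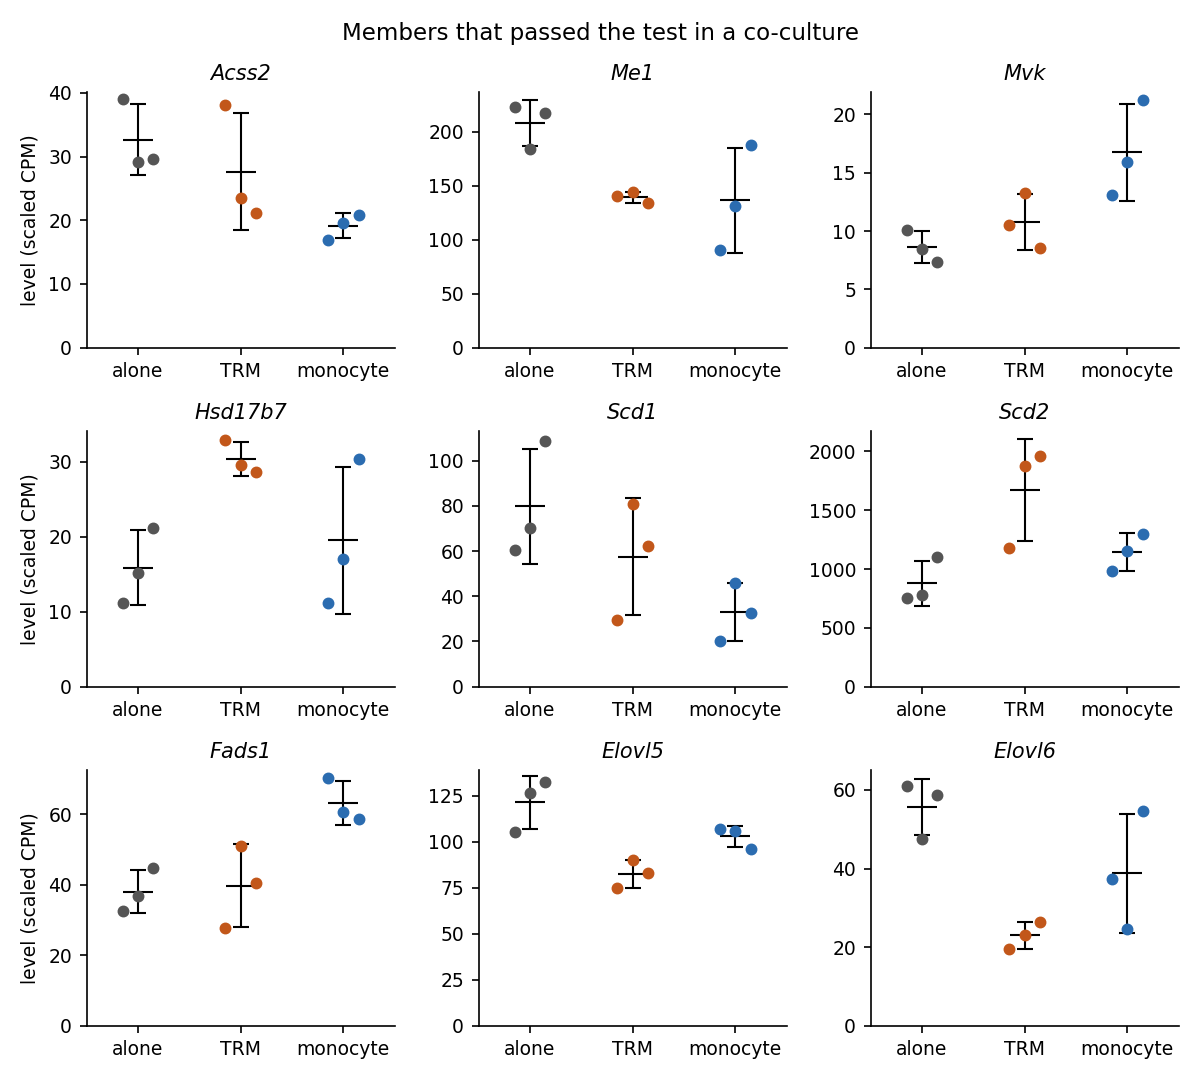
Level of the 9 members that passed in a comparison with tumour cells alone, in scaled CPM on a linear axis from 0, with 1 point per library and bars for the mean ± SD of 3 libraries. On average, Elovl6 and Elovl5 are lowest and Scd2 and Hsd17b7 highest in the TRM libraries. Fads1 and Mvk are on average highest, and Acss2 and Scd1 lowest, in the monocyte libraries.

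None of the 3 genes at the head of fatty acid synthesis, Acly, Fasn and Acaca, passed against tumour cells alone in limma, edgeR or DESeq2. In limma 18.4% of all genes passed with TRMs and 27.3% with monocytes. At an unadjusted limma p under 0.05 there were 0 of the 3 (3844 of all 12326 genes with TRMs, 4719 with monocytes). Acly was at 325, 295 and 394 scaled CPM alone, at 335, 459.6 and 428 with TRMs and at 354, 339.6 and 408 with monocytes (log2 0.27 and 0.13, limma adjusted p = 0.270 and 0.588). Fasn was at 548, 475 and 677 alone, at 491, 680.4 and 524 with TRMs and at 708, 574 and 675 with monocytes (log2 -0.00 and 0.21, limma adjusted p = 0.992 and 0.377). The groups overlapped for both genes. The 95% confidence interval of the log2 difference with TRMs ran from -0.07 to 0.60 for Acly and from -0.36 to 0.36 for Fasn. Acaca, the acetyl-CoA carboxylase that makes malonyl-CoA, was at 18.1 ± 4.32, 14.5 ± 3.73 and 18.4 ± 1.89 in the 3 groups (log2 -0.32 with TRMs, interval from -0.86 to 0.22).

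None of the 5 genes of SREBP control passed in limma in either comparison with tumour cells alone (18.4% of all genes did with TRMs, 27.3% with monocytes). At an unadjusted limma p under 0.05 there was 1 with TRMs, Srebf2 (3844 of all 12326 genes), and 0 with monocytes (4719 of 12326). By edgeR and DESeq2 0 were called. Srebf1 was at 235, 231 and 291 scaled CPM alone, at 252, 307 and 299.5 with TRMs and at 326, 312 and 241 with monocytes (log2 0.19 and 0.21, limma adjusted p = 0.449 and 0.329). Srebf2 was at 256, 224 and 283 alone, at 352, 317 and 294 with TRMs and at 339, 239.8 and 308 with monocytes (log2 0.34 and 0.21, limma adjusted p = 0.145 and 0.336). All TRM libraries lay above those alone for Srebf2, by a small margin, and the other pairs of groups overlapped.

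Scap was steady, at 91.8, 90.1 and 92.1 scaled CPM alone, 93.3, 117 and 89.0 beside TRMs and 115, 110.2 and 90.7 beside monocytes (log2 0.12 and 0.20). Insig1, itself an SREBP target, was at 42.2, 41.5 and 70.8 alone, 51.3, 69.2 and 63.4 beside TRMs and 45.3, 77.6 and 86.0 beside monocytes (log2 0.29 and 0.43, limma adjusted p = 0.487 and 0.234). Without monocyte 1 its monocyte difference passed (0.0427). Insig2 was at 46.0, 32.5 and 50.1 alone, 41.8, 39.8 and 51.6 beside TRMs and 30.7, 40.1 and 38.6 beside monocytes (log2 0.07 and -0.22). Stard4, a carrier that moves sterol between membranes, was at 12.3 ± 5.67, 15.5 ± 2.29 and 17.4 ± 10.6. For these 4 genes the groups overlapped.

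As a branch, the 18 sterol enzymes had a median log2 difference of 0.29 with TRMs, with 15 of 18 above 0, and of 0.23 with monocytes, with 16 of 18 above 0. Over all genes the medians were -0.00 and -0.02. Both branch medians turned on single libraries. Without alone 2 the TRM median was 0.13, with 10 of 18 above 0. Without monocyte 3 the monocyte median was -0.12, with 5 of 18 above 0. The 12 genes of fatty acid synthesis and supply had medians of -0.30 with TRMs (4 of 12 above 0) and -0.06 with monocytes (6 of 12 above 0; 0.09 without alone 3).

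The sterol enzymes also differed between libraries of the same group. In monocyte 3 all 18 were higher than in the other monocyte libraries (35.7% of all genes were), and 17 of 18 were the highest of all 9 libraries (13.8% of all genes were). The exception was Hsd17b7, highest in TRM 1. The ratio of monocyte 3 to the mean of the other monocyte libraries ran from 1.34 (Lss, the lanosterol synthase) to 3.11 (Idi1, an isopentenyl isomerase) with a median of 1.89, where the median over all genes was 0.981. Sqle, the squalene epoxidase, was at 48.2, 57.4 and 135 scaled CPM in monocyte 1 to 3. Cyp51, which removes a methyl group from lanosterol, was at 73.5, 78.4 and 156, Hmgcs1, the synthase that makes HMG-CoA, at 53.1, 67.5 and 111, and Dhcr7, a reductase at the end of the pathway, at 24.8, 19.5 and 37.2. Stard4 followed the same order, at 8.84, 14.01 and 29.3, while Srebf1 was lowest in monocyte 3 (241, against 326 and 312).

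Among the tumour cells alone, alone 2 was the lowest of its group for 12 of the 18 sterol enzymes (39.1% of all genes). It lay below the mean of the others for 15 of 18 (51.3% of all genes). The median ratio to that mean was 0.740, against 0.991 for all genes. Idi1 was at 8.81, 2.47 and 9.24 scaled CPM in alone 1 to 3 and Sqle at 88.5, 46.2 and 98.9. All 6 regulators and carriers were lowest in alone 2 (39.1% of all genes) and highest in alone 3 (29.1% of all genes). For Scap these libraries were nearly equal (91.8, 90.1 and 92.1 in alone 1 to 3). Summed over the 18 enzymes the level was 693, 543 and 767 scaled CPM alone, 792, 775 and 811 beside TRMs and 574, 639 and 1190 beside monocytes. The 3 TRM sums lay within a narrow band above those alone, and the monocyte sums fell on both sides of it. Depth (23931770 reads) and the mitochondrial share (0.580%) of monocyte 3 lay within the range of the other libraries. Its summed level of 9 epithelial markers was 16582, against 10565 and 11721 in the other monocyte libraries. The part of tumour cell content in the sterol pattern was not tested. In sorted bulk samples, fewer cells that express a gene and less RNA per cell cannot be told apart.

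**Figure D4:**
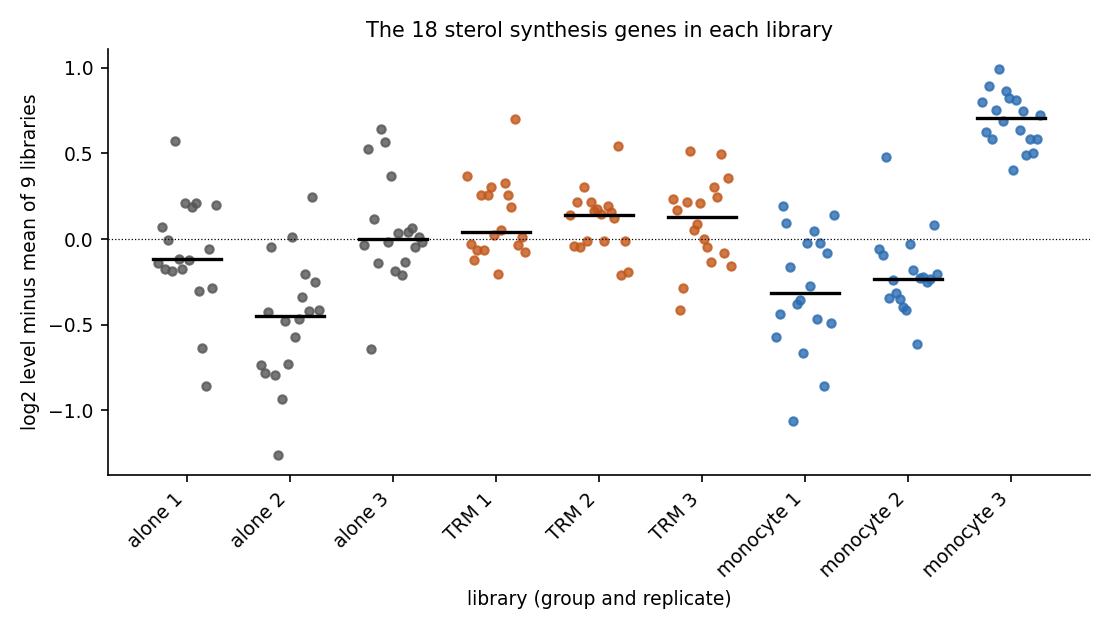
Log2 level of each of the 18 sterol synthesis genes minus its mean over the 9 libraries, by library, with 1 point per gene and a line at the median (sideways scatter of points is for legibility). The median of monocyte 3 is 0.71, those of the TRM libraries lie between 0.04 and 0.14, and that of alone 2 is the lowest at -0.45.

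Between the co-cultures none of the 36 members passed in limma (0.398% of all genes did, 0.325% higher and 0.073% lower with TRMs). At an unadjusted limma p under 0.05 there were 6 of the 36 (1437 of all 12326 genes), and edgeR and DESeq2 called 0. The smallest limma adjusted p was 0.177, for Fads1 (log2 -0.71, TRM minus monocyte). Groups did not overlap for Acss2 upward (7.55% of all genes did so) and for Acaca, Fads1 and Elovl5 downward (8.62%). So no member that passed against tumour cells alone in 1 co-culture was shown to differ between the co-cultures. For Scd2 the difference was 0.52 with a 95% confidence interval from 0.07 to 0.97 (limma adjusted p = 0.339), for Elovl6 -0.69, from -1.22 to -0.16 (0.273), and for Hsd17b7 0.75, from 0.07 to 1.44 (0.364). The sterol median between the co-cultures was 0.10, and 0.36 without monocyte 3.

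The paired desaturases Scd1 and Scd2 make the same product, so their balance was computed, a choice made after their values were seen. Of the reads of both genes together, Scd1 took 7.37%, 8.29% and 8.98% in the libraries alone, 2.44%, 4.14% and 3.06% beside TRMs and 2.02%, 3.83% and 2.45% beside monocytes. Every co-culture library lay below every library alone. The means were 8.22% ± 0.807, 3.21% ± 0.858 and 2.77% ± 0.947 (SD, n = 3). The log2 ratio of Scd1 to Scd2 was lower by 2.75-fold with TRMs (log2 -1.46) and by 3.25-fold with monocytes (-1.70). A two-sided exact permutation test gave p = 0.1 for each, the smallest it can give with 3 against 3, and 0.6 between the co-cultures (adjusted 0.15, 0.15 and 0.6 over these 3 tests). With 1 library left out at a time the log2 difference stayed between -1.67 and -1.27 with TRMs and between -1.97 and -1.49 with monocytes. Of the 50-base stretches of Scd1, 4.56% occur in another gene, most often Scd3, and of those of Scd2 3.97%, most often in Scd1.

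**Figure D5:**
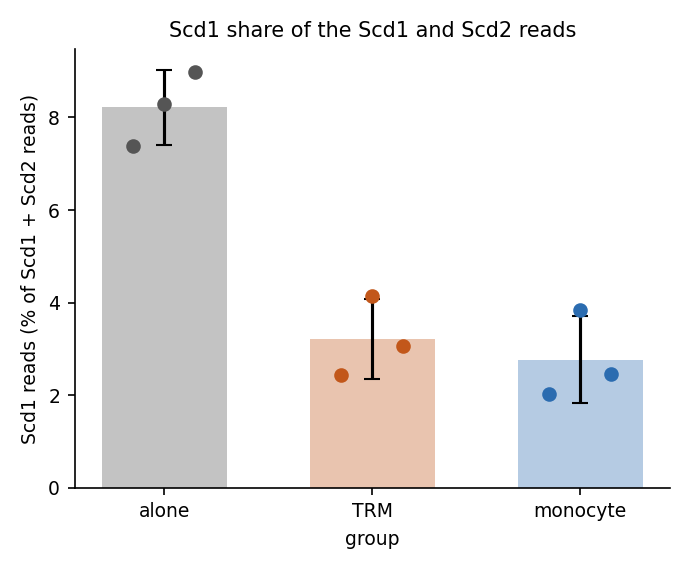
Scd1 reads as a percentage of Scd1 and Scd2 reads together, with 1 point per library, bars at the group mean from 0 and whiskers of ± SD (n = 3). The libraries alone span 7.37% to 8.98%, above the span of 2.02% to 4.14% of the 6 co-culture libraries.

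Genes next to the pathway were taken from lists by function. Of 14 genes of sterol uptake, esterification and trafficking, 7 rose and 0 fell with TRMs (10.2% and 8.15% of all genes), and 6 rose and 0 fell with monocytes (14.7% and 12.7% of all genes). Among the leading genes by smallest p with TRMs were Npc2, which binds cholesterol in the lysosome, Vldlr, a receptor for lipoproteins, and Scarb1, the receptor for high-density lipoprotein. Npc2 was at 111, 127 and 113 scaled CPM alone, 181, 229 and 204 beside TRMs and 241, 256 and 228 beside monocytes, so that the co-culture libraries all lay above those alone (1.75-fold, limma adjusted p = 0.000996, and 2.07-fold, 0.000110). Scarb1 rose 1.63-fold and 2.13-fold (limma adjusted p = 0.0169 and 0.000835), lost with TRMs without alone 1 (0.0629), alone 3 (0.0705) or TRM 2 (0.101). Soat1, which esterifies cholesterol, rose 1.95-fold with monocytes (limma adjusted p = 0.000692). The TRM count was 3 without alone 1 or alone 3, 2 without TRM 2, 4 without TRM 3 and 4 with library totals.

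Vldlr was at 34.6, 35.3 and 26.3 scaled CPM alone, at 57.2, 69.3 and 62.6 with TRMs and at 21.2, 29.8 and 33.1 with monocytes. The 3 TRM libraries lay above all others. It rose 1.98-fold with TRMs (limma adjusted p = 0.00350), was at a log2 difference of -0.21 with monocytes (0.467), and was higher with TRMs than with monocytes (2.28-fold, 0.0241). This last call was lost without TRM 1 (0.0775), TRM 2 (0.131), TRM 3 (0.0779), monocyte 1 (0.0654) or monocyte 2 (0.0694). Of the 14 genes it was the 1 that passed between the co-cultures.

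Of 8 genes of LXR and sterol efflux, 1 fell with TRMs (2 without monocyte 3; 8.15% of all genes fell) and 2 with monocytes (12.7% of all genes), and 0 rose (1 with TRMs without monocyte 1 and in DESeq2). Abca1, the pump that exports cholesterol, was at 12.8, 11.6 and 35.8 scaled CPM alone, 5.22, 5.39 and 8.65 beside TRMs and 3.65, 5.88 and 1.70 beside monocytes. All co-culture libraries lay below those alone. It was 2.80-fold lower with TRMs (limma adjusted p = 0.0485) and 5.27-fold lower with monocytes (0.00279). The TRM call was lost without alone 1 (0.0608), alone 3 (0.233), TRM 1 (0.126), TRM 2 (0.155), TRM 3 (0.0590) or monocyte 1 (0.0539) and with a replicate block (0.0577). The related pump Abcg1 fell 2.81-fold with monocytes (18.6 ± 5.56 to 6.65 ± 1.93, SD, n = 3; limma adjusted p = 0.00389).

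Of 10 further sterol pathway genes 3 rose with TRMs (1 without alone 1 or alone 3, 0 without TRM 2; 10.2% of all genes rose) and 4 with monocytes (14.7% of all genes), and 0 fell (1 with monocytes without monocyte 2 and in DESeq2). Aacs, which activates acetoacetate for lipid synthesis, rose 1.48-fold and 1.58-fold (86.1 ± 8.14, 127 ± 9.41 and 136 ± 10.5 in the 3 groups, SD, n = 3; limma adjusted p = 0.00992 and 0.00278), with the TRM call lost without TRM 2 (0.0568). Cyb5r3, a reductase that feeds electrons to sterol and fatty acid desaturation, rose 1.35-fold and 1.57-fold (limma adjusted p = 0.0196 and 0.00124), lost with TRMs without alone 1 (0.0531), alone 3 (0.0788), TRM 2 (0.0820) or TRM 3 (0.0519) and with library totals (0.0531). Por, the reductase that serves Cyp51, rose 1.39-fold with TRMs (limma adjusted p = 0.0197), lost without alone 1 (0.0706), alone 3 (0.0668), TRM 1 (0.0506) or TRM 2 (0.106). Acat1, a mitochondrial thiolase, rose 1.52-fold with monocytes (limma adjusted p = 0.00337), and so did Lbr, a sterol reductase of the nuclear envelope (1.38-fold, 0.0384). The Lbr call was lost without alone 1 (0.155), alone 3 (0.0805), TRM 2 (0.0510), TRM 3 (0.0503), monocyte 1 (0.0895) or monocyte 2 (0.0999) and with library totals (0.0526).

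Of 12 genes of SREBP processing and turnover 0 passed with TRMs in limma (3 at an unadjusted p under 0.05; edgeR 0, DESeq2 1 higher and 1 lower; 1 higher without alone 2), and 1 rose with monocytes. Of all genes 18.4% passed with TRMs in either direction and 14.7% rose with monocytes. With TRMs 3844 of all 12326 genes had an unadjusted limma p under 0.05. That gene was Mbtps1, the site-1 protease that cuts SREBPs (1.45-fold, limma adjusted p = 0.0243), lost without alone 1 (0.112), monocyte 1 (0.0652) or monocyte 2 (0.0732).

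Of 22 further genes of fatty acid and acylglycerol synthesis 1 rose and 5 fell with TRMs (10.2% and 8.15% of all genes), and 2 rose and 4 fell with monocytes (14.7% and 12.7% of all genes). Fads3, a desaturase in the same gene cluster as Fads1 and Fads2, was at 149 ± 14.2, 251 ± 33.4 and 313 ± 30.9 scaled CPM in the 3 groups in the same order (SD, n = 3), 1.68-fold and 2.10-fold higher (limma adjusted p = 0.00263 and 0.000160). Acsl4, which activates arachidonate, was 1.69-fold and 2.12-fold lower (350.2 ± 14.8, 209 ± 24.7 and 172 ± 53.2; limma adjusted p = 0.0195 and 0.00163). Elovl7, an elongase, was 1.52-fold and 1.61-fold lower (limma adjusted p = 0.0203 and 0.00688). Acsl5, another acyl-CoA synthetase, fell 1.38-fold with TRMs (limma adjusted p = 0.0177), and Dgat2, which completes triacylglycerol, 1.66-fold with monocytes (0.0170; lost without alone 2, 0.0681).

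With TRMs, the Acsl4 call was lost without alone 1 (0.0567), alone 3 (0.0694), TRM 1 (0.0512) or TRM 2 (0.0882). That of Elovl7 was lost without alone 2 (0.0681), alone 3 (0.0635) or TRM 2 (0.111), and that of Acsl5 without alone 1 (0.0722), alone 3 (0.0870), TRM 2 (0.0564) or TRM 3 (0.0501). The TRM count of fallen genes in this list was 0 without alone 3 or TRM 2, 1 without alone 1, 2 without TRM 3 and 3 without alone 2 or TRM 1. The count of risen genes was 2 with TRMs without any 1 of the monocyte libraries. With monocytes it was 1 without any 1 of the libraries alone and without TRM 2, monocyte 1 or monocyte 3.

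The authors' deposited tables give their own test of the same libraries. The authors' deposited table for TRMs had 6 members at a false discovery rate under 0.05 (3 higher, 3 lower): the 4 called here plus Me1 (log2 -0.60) and Msmo1 (log2 0.47). Of all genes in the authors' deposited table for TRMs, 12.0% rose and 11.7% fell by that test. With monocytes, the authors' deposited table had 5 members, the same 5 as here, against 14.4% of all its genes higher and 13.8% lower.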

How the data were processed

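RNA of sorted tumour cells was measured in 9 libraries (3 per group) made with SMART-Seq v4, which is not stated to mark strand. STAR 2.5, edgeR and mm10 are named, per the submitters' processing notes. No source used here gives the counting tool or the annotation. The expression table deposited by the authors holds a signal per gene (scaled CPM), which is whole reads plus 0.5 over a scaled library size. From it whole reads were recovered for all 111051 values (100%, tolerance 1e-06 reads). Per the file headers, the authors' deposited comparison tables hold log2 fold changes, a likelihood ratio score, p-values and FDR.

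The log2 of the deposited values was tested with limma 3.58.1 (trend, group means over all 9 libraries, 6 residual degrees of freedom, two-sided) with Benjamini-Hochberg adjustment over 12326 genes, after edgeR's filter on recovered reads (minimum count 10, total 15). Fold changes compare geometric means. Values are given per library for called members, the 4 of highest level per length alone and the regulators of SREBP. Of other lists up to 4 called genes by smallest adjusted p are named; some are not reported here. Sterol genes that show the spread between libraries were named after their values were seen. The members and lists were chosen with earlier results of these data known. Intervals are at 95%. Alternatives were library totals, DESeq2 1.42.0 size factors and its Wald test, edgeR 4.0.16 quasi-likelihood, log2 of value plus 1, no filter or 1 CPM in 3 libraries, only the 2 groups compared, a replicate block and each library left out. Those on other lists, branch medians and the Scd1 share were chosen after seeing the data. The limma test was also run on simulated counts, drawn gene by gene with no shift shared by the genes of a library. That simulation cannot speak to shared patterns such as that of monocyte 3. Promoters came from RefSeq (GRCm38.p6), gene positions and exon lengths from GENCODE M21 (GRCm38). R 4.3.3 and Python 3.11.15 were used.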

Additional observations from a re-analysis of the deposited data

How the results depend on the processing

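With TRMs the number of members that rose was 2, but 1 with scaling by library totals, 1 in edgeR and 4 when only the 2 groups compared were fitted. With 1 library left out it lay between 1 and 4, and the number that fell (2) between 1 and 3. With monocytes the number that rose (2) lay between 1 and 2 and the number that fell (3) between 0 and 4, at 0 without alone 3 and 0 without monocyte 1. Between the co-cultures it was 0 throughout. No member with a call reversed its direction under any alternative run. The cause of the shifts was not tested; leaving out libraries also leaves fewer residual degrees of freedom. Over all genes, library totals moved the split with TRMs from 1257 higher and 1005 lower to 1003 and 1302, and with monocytes from 1806 and 1560 to 1603 and 1758.

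Replicate numbers were not treated as pairs, since the labels tie them to no shared culture and not every same-numbered pair had a correlation of deviations over 0.1. It was over 0.1 in 5 of 9 such pairs (range -0.0246 to 0.429), and in 12 of 18 comparisons a library correlated best with its own number, a hint of pairing from the data and not from the design. With a replicate block the counts were 2 and 2 with TRMs, 2 and 3 with monocytes and 0 between the co-cultures, and no member's call changed. Abca1 was lost with TRMs under the block (adjusted p = 0.0577). Depth limits the low members most: Idi1 had as few as 52 reads in a library and Fdps 59.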
